A study of Rattus norvegicus with 20 samples.

Results

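The S100 proteins and annexins measured here are 10 calcium-binding protein genes of the rat: S100a4, S100a8, S100a9 and S100a10 of the S100 family, and Anxa1, Anxa2, Anxa3, Anxa4, Anxa5 and Anxa6 of the annexin family. Every probe set whose only gene symbol in the platform annotation was 1 of these 10 was taken, whatever its values. The 10 genes themselves were chosen with earlier results of these data known. Shares of the members set beside those of all probe sets are therefore descriptions. The 10 are among 4736 genes that the array reads under a symbol of their own, and they have 14 of its 8740 probe sets that are not controls, 4 for S100 genes and 10 for annexins. The RNA came from rear-leg skeletal muscle of rats and was measured on 20 one-colour Affymetrix arrays, 1 array per sample and 5 arrays per group. The groups were muscle of diabetic rats given vanadyl sulfate, muscle of diabetic rats without it, muscle of normal rats given vanadyl sulfate, and muscle of normal rats without it. Vanadyl sulfate is a vanadium salt with insulin-like effects on glucose handling. Left unstated by the labels are how the rats were made diabetic, their strain, sex and age, the muscle, the dose and the days of treatment. Nor do the labels say whether the 5 replicates of a group came from separate rats, so p-values measure the spread between these samples, which may be in part technical.

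S100 proteins are small calcium sensors that bind partner proteins when calcium rises. S100a8 and S100a9 join into calprotectin, which is abundant in neutrophils and monocytes and can signal through the receptors Tlr4 and Ager when it is released. S100a4 binds non-muscle myosin, tropomyosin and actin regulators and is known from motile fibroblasts, macrophages and other migrating cells. Annexins bind membrane phospholipids in a calcium-dependent way. Annexin A1 limits inflammation through formyl peptide receptors and is known as an inhibitor of phospholipase A2. Annexin A2 and S100a10 form a tetramer on the cell surface that gathers plasminogen and its activator. Annexin A5 coats exposed phosphatidylserine, and annexins A1, A2, A5 and A6 gather at torn muscle membranes. Most of these are expressed by several cell types in muscle tissue besides the fibres.

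The RefSeq promoter table for the GRCr8 rat assembly held 7 of the 10 genes, and those not held were S100a8, S100a10 and Anxa6. The 250 bases before the start of transcription are given below for the gene that passed the main test (S100a4), for the calprotectin subunit in the table (S100a9) and for the annexin with separate groups under treatment (Anxa2). Each runs 5′ to 3′ on the strand of its gene. Capitals mark matches to a TATA box (TATAAA), an AP-1 site (TGANTCA) or a C/EBP core (TTNCNNAA), searched on both strands.
S100a4, chr2:178388279-178388528, plus strand: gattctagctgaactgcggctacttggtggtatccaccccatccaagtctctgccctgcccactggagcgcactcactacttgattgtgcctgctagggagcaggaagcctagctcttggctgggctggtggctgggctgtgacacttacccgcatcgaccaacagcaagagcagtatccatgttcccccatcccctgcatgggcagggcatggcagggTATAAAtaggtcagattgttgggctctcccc
S100a9, chr2:178490623-178490872, minus strand: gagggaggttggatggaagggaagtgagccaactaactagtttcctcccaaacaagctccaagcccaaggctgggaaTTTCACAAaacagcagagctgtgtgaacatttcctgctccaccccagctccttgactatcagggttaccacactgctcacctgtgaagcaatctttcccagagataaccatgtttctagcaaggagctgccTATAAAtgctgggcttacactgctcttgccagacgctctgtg
Anxa2, chr8:78986002-78986251, plus strand: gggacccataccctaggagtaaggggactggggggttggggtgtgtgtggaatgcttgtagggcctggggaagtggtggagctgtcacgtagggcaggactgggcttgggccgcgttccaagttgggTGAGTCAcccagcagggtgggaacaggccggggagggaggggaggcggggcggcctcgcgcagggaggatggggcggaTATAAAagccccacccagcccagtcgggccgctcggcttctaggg
The TATA box began 31 bases before the start in S100a4, 42 in S100a9 and 45 in Anxa2, and Anxa1 also had it, 46 bases before its start. Anxa3, Anxa4 and Anxa5 had none in this window. Of 27457 rat promoters of the same length, 13.09% held a TATA box match. The S100a9 window had a C/EBP core 173 bases before the start, a motif found in 36.79% of promoters. The Anxa2 window had an AP-1 match 123 bases before the start, which 6.36% of promoters hold. These are matches of letters, not tested sites. In the same assembly S100a4, S100a8, S100a9 and S100a10 all lie on chromosome 2, where S100a8 and S100a9 are neighbours with 0 genes listed between them.

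Values are linear MAS5 signals, a brightness per probe set whose trimmed mean was nearly the same on every array (2503.4 to 2506.46). A level in 1 probe set cannot be set against the level in another, so each probe set is compared only with itself across arrays. Differences are given on the scale of log2(signal + 16), with the standard error from a limma fit to all 20 arrays. Adjusted p-values are Benjamini-Hochberg values over the 6027 tested probe sets, which are those that 5 or more arrays placed above their own 40th percentile. Of the 14 member probe sets, 11 passed. S100a8 was above that percentile in 3 arrays, S100a9 in 4 and the second Anxa3 probe set in 0, and these 3 are described by their values and by a fit without the filter. Ckm, Tnnc2 and Acta1, the muscle creatine kinase, fast troponin C and skeletal actin, lay at median percentiles of 100, 99.95 and 99.95.

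Some arrays stood apart in measures other than the members. The 3′ to 5′ signal ratio of Gapdh, a sign of RNA degradation when high, was above 2 on the log2 scale in replicate 1 of the treated diabetic group (3.94) and in normal replicates 1 and 3 (2.90 and 2.91), against at most 1.31 in the other arrays. The beta-actin ratio averaged 1.97 in treated diabetic, 1.75 in diabetic, 1.07 in treated normal and 1.30 in normal muscle. The summed signal of macrophage markers was 117316 and 112176 in diabetic replicates 1 and 3, against 35072 to 44456 in the other diabetic arrays and 15144 to 22667 in normal arrays. Diabetic replicates 1 and 3 also led their group in sums of adipocyte, fibroblast, lymphocyte, mast cell, smooth muscle and regenerating fibre markers. They did not both lead it in neutrophil, endothelial, Schwann cell, red blood cell or skeletal muscle markers. Calls of the S100 and annexin genes and their partners that were lost without these arrays are given with both values.

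In diabetic against normal muscle, S100a4 rose 4.69-fold and was the only member probe set of the 11 tested that passed the threshold of 0.05. Across all tested probe sets, 1.83% passed, 76 higher (1.26%) and 34 lower (0.564%). Before adjustment 16.7% of all and 2 of the 11 tested member probe sets, which read 8 of the 10 genes, had p under 0.05, the second being S100a10, which was 2.24-fold higher and did not pass. None of the 11 probe sets had groups without overlap, against 3.33% of all that were separate and higher. Among the annexins, none passed: their 9 tested probe sets had a median log2 change of 0.35, between -0.65 for Anxa4 and 0.80 for the brighter Anxa1 probe set. Of the 11 member probe sets, 8 had a change above 0, against 44.9% of all probe sets, and their median was 0.37, against -0.06 for all.

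S100a4 (probe set X06916_at) read 4361, 4146, 8839, 2813 and 8618 in replicates 1 to 5 of the treated diabetic group, 15935, 8207, 15016, 6973 and 6509.5 in diabetic, 3884, 1871, 2636, 4439.8 and 1326 in treated normal and 3735, 1896, 7036, 1082 and 698 in normal muscle. All 5 diabetic arrays were above the normal group's mean, but normal replicate 3 lay above the lowest 2 diabetic arrays, so the groups overlapped. The log2 means were 13.26 ± 0.62 in diabetic and 11.03 ± 1.33 in normal muscle (SD, n = 5 each). The difference was 2.23 ± 0.53 (SE; 95% confidence interval 1.13 to 3.33; limma adjusted p = 0.0348), which placed S100a4 at rank 22 by size among the 76 probe sets that rose. The geometric means were, from high to low, 9774 in diabetic, 5221 in treated diabetic, 2575 in treated normal and 2072 in normal muscle. Neither neighbouring pair that was tested, treated normal against normal and treated diabetic against diabetic, differed past the threshold.

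The arrays with the highest S100a4 signal, diabetic replicates 1 and 3, were those with the highest macrophage marker sums. They also led the diabetic group in sums of adipocyte, fibroblast, lymphocyte, mast cell, smooth muscle and regenerating fibre markers. Their beta-actin ratios were 2.30 and 2.52. Without both, the S100a4 difference was 1.79 (limma adjusted p = 0.489). Without the 3 arrays of high Gapdh ratio it was 3.10 (adjusted p = 0.00250), and with the Gapdh and beta-actin ratios as covariates it was 2.26 and missed the threshold (adjusted p = 0.0571). The call was also lost when a single array was left out, namely diabetic replicate 1 (adjusted p = 0.124) or 3 (0.120), or normal replicate 2 (0.0677), 4 (0.0961) or 5 (0.0969), while the difference stayed between 1.84 and 2.67 over all 20 single omissions. The correlation of S100a4 signal with the beta-actin ratio was 0.58 over the 20 arrays, given as a description. The part of macrophage RNA, of RNA from other cell types or of RNA quality in the S100a4 result was not tested. In whole muscle, more cells of a type and more RNA per cell cannot be told apart.

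**Figure D1:**
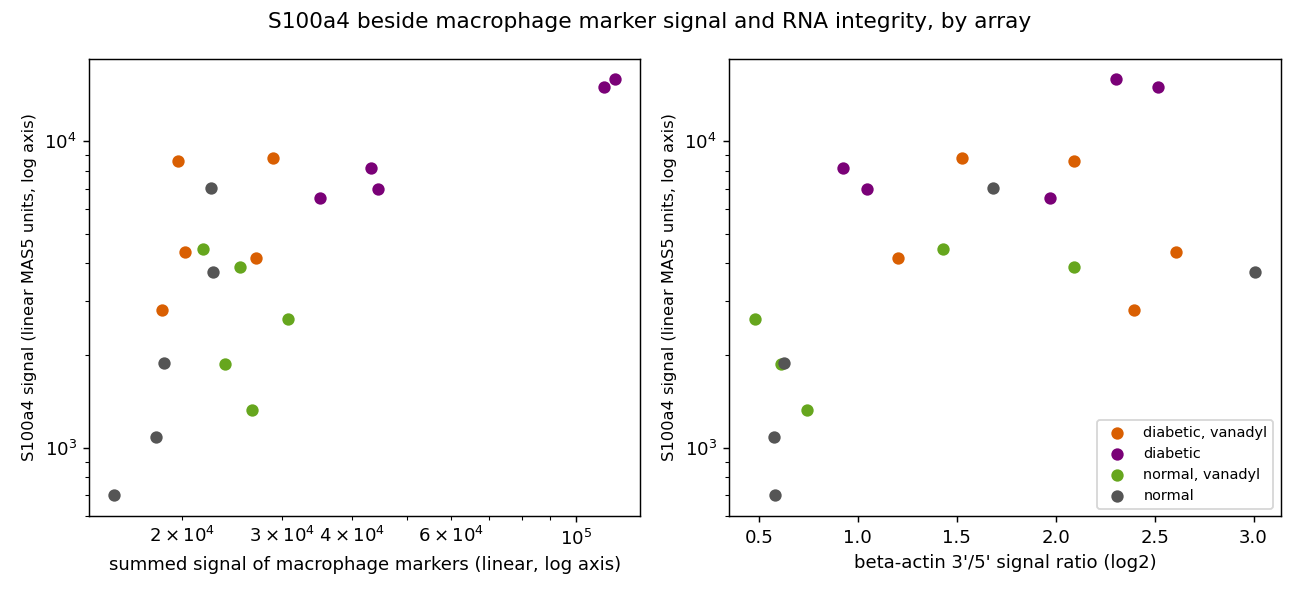
S100a4 signal (linear MAS5 units, log axis) of each of the 20 arrays plotted against the summed signal of all listed macrophage markers on the array, tested or not (left, log axis) and against the log2 ratio of beta-actin 3′ to 5′ signal (right), coloured by group. Diabetic replicates 1 and 3 sit at the upper right of the left panel, at macrophage sums of 117316 and 112176. These arrays also led the diabetic group in several other marker sums, which are not plotted.

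S100a10 and annexin A2 are described together because their proteins form a complex. S100a10 (J03627_at) read 4932, 6235, 6914, 3012 and 5862 in treated diabetic, 11152, 6642, 8978, 8042 and 6715 in diabetic, 6319, 3439, 3742, 5738 and 3734 in treated normal and 7995, 4200.5, 6538, 1916 and 1501 in normal muscle. The diabetic arrays clustered between 6642 and 11153, while the normal arrays ran from 1501 to 7995 and overlapped them. The log2 difference of diabetic from normal muscle was 1.16 ± 0.39 (adjusted p = 0.128). It passed without the 3 arrays of high Gapdh ratio (1.82, adjusted p = 0.00809), with that ratio as a covariate (1.35, adjusted p = 0.0304) and without normal replicate 1 (1.44, adjusted p = 0.0376). Over the 10 alternative settings its adjusted p ran from 0.00809 to 0.668.

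Anxa2 (L13039_s_at) read 6083, 6204, 4161, 4381 and 4519 in treated diabetic, 9017, 9983, 9694, 7330.3 and 6469 in diabetic, 6475, 4078, 5874, 8471 and 3280.1 in treated normal and 8514, 5112, 6882, 4394 and 5634 in normal muscle. Every treated diabetic array lay below every untreated diabetic array. Anxa2 was the only 1 of the 11 tested member probe sets whose groups did not overlap in that comparison, and 2.07% of all tested probe sets were separated in the same direction. The log2 difference was -0.75 ± 0.26, a 1.68-fold lower signal, and did not pass (unadjusted p = 0.0102, limma adjusted p = 0.189). In diabetic against normal muscle Anxa2 differed by 0.49 ± 0.26 (adjusted p = 0.349). The suffix of this probe set marks probes shared by more than 1 transcript, and the rat reference lists 8 Anxa2 pseudogenes, so the signal may include them.

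Over the 20 arrays S100a10 correlated with S100a4 at r = 0.90 (0.88 after group means were removed), with the brighter Anxa1 probe set at 0.81 (0.78) and with Anxa2 at 0.61 (0.54). These correlations describe arrays that share groups and RNA quality. S100a10, S100a4 and the brighter Anxa1 probe set each had a correlation of 0.57 to 0.59 with the beta-actin 3′ to 5′ ratio.

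**Figure D2:**
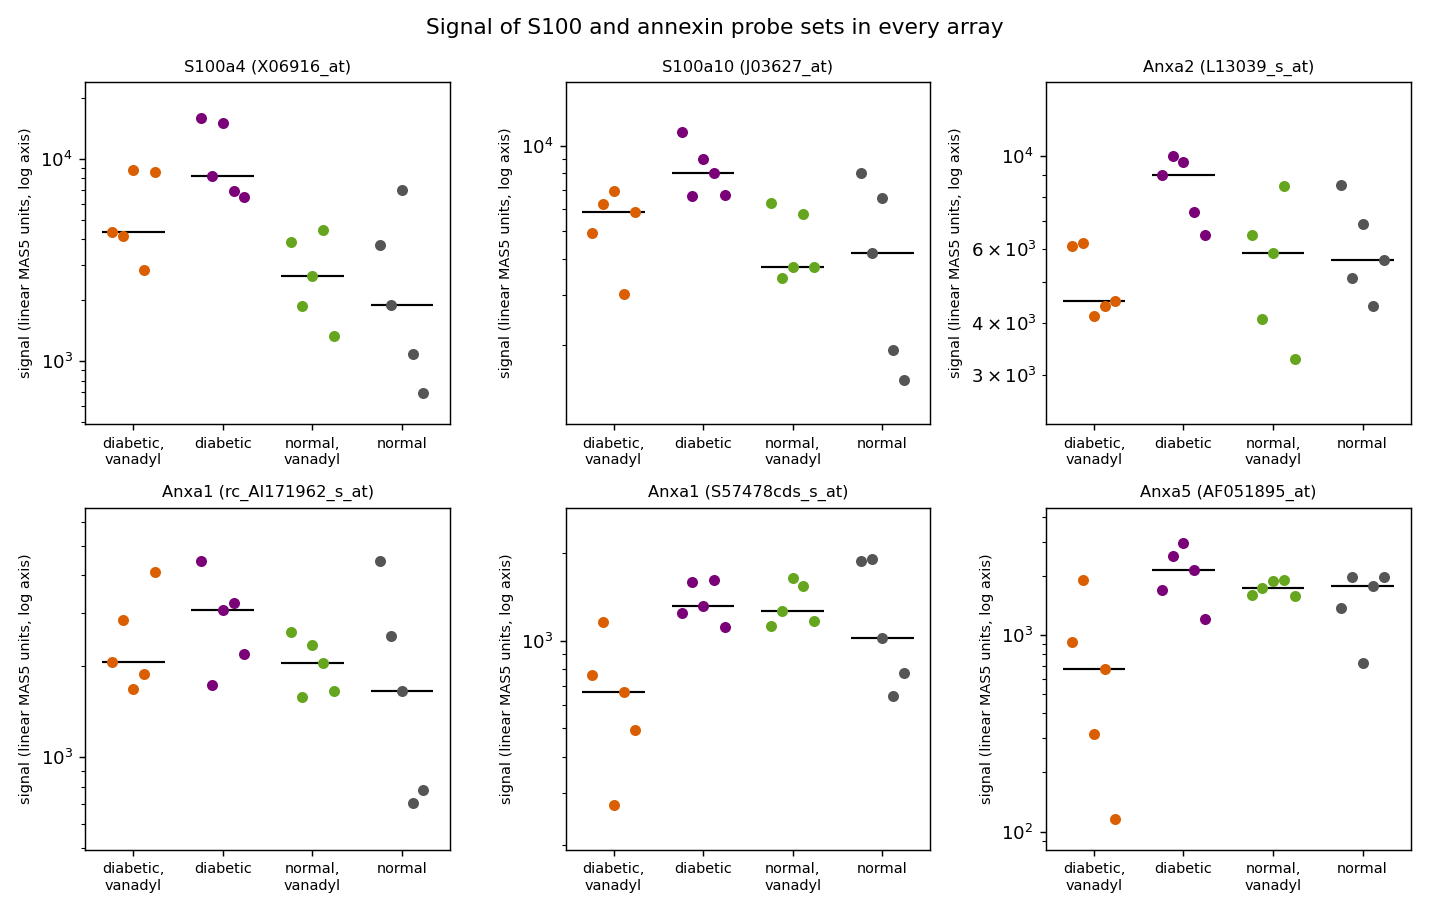
Signal (linear MAS5 units, log axis) of 6 S100 and annexin probe sets in each array, grouped from left to right as treated diabetic, diabetic, treated normal and normal muscle. Points are arrays and horizontal lines are medians. Anxa2 is the panel in which all treated diabetic arrays lie below all diabetic arrays.

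The calprotectin genes were dim in most arrays and high in a few. S100a8 (rc_AA957003_at) read 312, 28.2, 62.9, 531 and 301 in treated diabetic, 1240.2, 169, 905, 44.4 and 81.1 in diabetic, 24.1, 72.4, 37.5, 199 and 39.2 in treated normal and 58, 83.4, 206, 183 and 205 in normal muscle. S100a9 (L18948_at) read 162, 52.2, 63, 899 and 608 in treated diabetic, 1154, 169, 1139.8, 140.3 and 228 in diabetic, 196, 234, 223, 269 and 189 in treated normal and 109.6, 119.8, 61.6, 252 and 229 in normal muscle. For both genes the highest readings were diabetic replicates 1 and 3, followed by treated diabetic replicate 4. No array of normal muscle, treated or untreated, exceeded 206.4 for S100a8 or 269.2 for S100a9. The other 3 diabetic arrays were within the range of normal muscle.

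Fitted without the filter, the differences of diabetic from normal muscle were 0.83 ± 0.79 for S100a8 (adjusted p = 0.679) and 1.36 ± 0.68 for S100a9 (adjusted p = 0.390), and neither passed. Without diabetic replicates 1 and 3 the S100a8 difference was -0.53, so its direction rests on those arrays, and the S100a9 difference was 0.32. The pair rose and fell together across arrays, with r = 0.75 over the 20 arrays and 0.82 after group means were removed.

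Diabetic replicates 1 and 3 were also the arrays with the highest macrophage marker sums, and they led the diabetic group in several other marker sums. Treated diabetic replicates 4 and 5, which had the highest S100a9 signal of their group (898.6 and 608.1), had its lowest macrophage sums (18440 and 19663, against 20217 to 28939 in the other 3). Of 15 listed neutrophil markers 6 were on the array, and Mmp8 was above the 40th percentile in 0 arrays, Defa5 in 1, Cxcr2 in 2 and Mmp9 in 3. Il1b and Lcn2, the tested ones, did not pass in any comparison. The summed neutrophil marker signal was 1156 to 1673 in treated diabetic, 1001 to 1683 in diabetic, 1032 to 1725 in treated normal and 758 to 2024 in normal muscle, and the groups overlapped. The part of any cell type in the S100a8 and S100a9 readings was not tested.

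**Figure D3:**
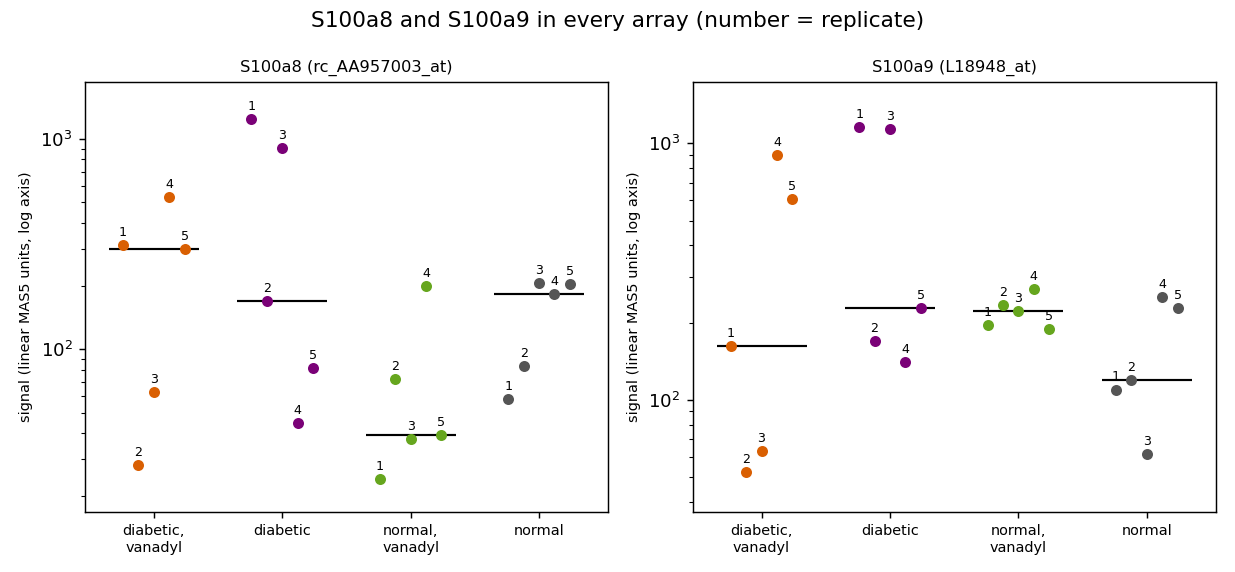
Signal of S100a8 (left) and S100a9 (right) in each array (linear MAS5 units, log axis), with the replicate number above each point and a line at each group's median. Groups run from treated diabetic and diabetic on the left to treated normal and normal on the right. Diabetic replicates 1 and 3 are the top points in both panels.

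Annexin A1 was read by 2 probe sets that did not behave alike. The brighter (rc_AI171962_s_at) read 2071, 2849.9, 1685, 1891 and 4101 in treated diabetic, 4438, 1728, 3061, 3236 and 2201 in diabetic, 2604, 1583, 2353, 2051 and 1652 in treated normal and 4441, 2517, 1662, 707 and 782 in normal muscle. Its groups overlapped, with differences of 0.80 ± 0.42 for diabetic against normal (adjusted p = 0.342) and -0.22 ± 0.42 for treated against untreated diabetic (adjusted p = 0.811). The other (S57478cds_s_at) read 759, 1155, 274, 668 and 492 in treated diabetic, 1240.5, 1581, 1316, 1612 and 1111 in diabetic, 1122, 1266, 1643, 1542 and 1165 in treated normal and 1869, 1895, 1018, 646 and 773 in normal muscle. Here 4 of the 5 treated diabetic arrays lay below every untreated diabetic array. The difference was -1.15 ± 0.34 (unadjusted p = 0.00305, limma adjusted p = 0.122). The 2 probe sets correlated at r = 0.34 over the 20 arrays.

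Annexin A5 was likewise read by 2 probe sets, and their correlation was -0.16. The dimmer (AF051895_at) read 922, 1918, 315, 673 and 115 in treated diabetic, 1698, 2535, 2963, 2149 and 1206 in diabetic, 1596, 1742, 1897, 1904 and 1588 in treated normal and 1383, 1989, 719, 1791 and 1973 in normal muscle. The treated diabetic arrays spread over more than an order of magnitude, and 3 of 5 were below every array of the other groups. Treated against untreated diabetic muscle differed by -1.86 ± 0.50, a 3.63-fold lower signal that did not pass (unadjusted p = 0.00133, limma adjusted p = 0.103). The difference passed without treated diabetic replicate 2, at -2.31 (adjusted p = 0.0210), and over all 20 single omissions its adjusted p was 0.0210 to 0.258. The brighter probe set (D42137exon_s_at) ran from 4135 to 11131 in treated diabetic, 6399 to 9139 in diabetic, 3939 to 7992 in treated normal and 4090 to 8052 in normal muscle. It differed by -0.15 ± 0.28 for treated against untreated diabetic (adjusted p = 0.805), so the low readings of the first probe set were not seen in it. Which probe set reads Anxa5 better was not tested. The dimmer Anxa5 and the dimmer Anxa1 probe sets correlated at r = 0.75 (0.51 after group means were removed).

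The remaining annexins showed no call. Anxa3, which binds membranes in phagocytes, read 583 to 728.2 in treated diabetic, 191 to 639.3 in diabetic, 542.2 to 795 in treated normal and 506.5 to 710.9 in normal muscle (AA850219_at). Its differences ran opposite to those of S100a4, at -0.52 ± 0.26 for diabetic against normal (adjusted p = 0.320) and 0.60 ± 0.26 for treated against untreated diabetic (adjusted p = 0.254). The second Anxa3 probe set (rc_AI639072_at) was dim throughout, at 33.7 to 179.8 in treated diabetic, 23.3 to 175.1 in diabetic, 34.2 to 395.9 in treated normal and 34.2 to 204 in normal muscle. Anxa4, an annexin of secretory epithelia, ran from 347.6 to 1551 in treated diabetic, 378.9 to 1053 in diabetic, 1025 to 1634 in treated normal and 349.5 to 2622 in normal muscle. Its difference of diabetic from normal muscle was -0.65 ± 0.44 (adjusted p = 0.468). Anxa6, the large annexin of muscle membranes, had a bright probe set (X86086_g_at) at 3335 to 15577 in treated diabetic, 9636 to 12156 in diabetic, 9244 to 14620 in treated normal and 8492 to 18549 in normal muscle. Its difference of diabetic from normal muscle was -0.05 ± 0.34 (adjusted p = 0.961), and the dim Anxa6 probe set (X86086_at), which ran from 198.9 to 483.1 in diabetic and 15.8 to 481.7 in normal muscle, differed by 0.35 ± 0.64 (adjusted p = 0.825). Without the 3 arrays of high Gapdh ratio, which include the normal array at 15.8, the difference of the dim probe set was -0.55.

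Treatment was then compared within each state. In treated against untreated diabetic muscle, 0 of the 11 member probe sets passed, while 0.498% of all tested probe sets did, and 4 of the 11 had an unadjusted p under 0.05, against 16.3% of all. Those 4 were the dimmer Anxa5 and Anxa1 probe sets and Anxa2, which were lower, and Anxa3, which was higher. S100a4 differed by -0.90 ± 0.53 (adjusted p = 0.394) and S100a10 by -0.65 ± 0.39 (adjusted p = 0.408). Of the 11 member probe sets, 2 had a change above 0, against 56.1% of all probe sets, and their median was -0.30, against 0.08. The comparison of diabetic with normal muscle uses the same 5 diabetic arrays, so a high diabetic array makes that difference larger and this one more negative.

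In treated against untreated normal muscle, 0 member probe sets passed by limma, 0 had an unadjusted p under 0.05 (9.23% of all did), and the differences ran from -0.16 for Anxa2 to 0.92 for the dim Anxa6 probe set, with S100a4 at 0.31 ± 0.53 (adjusted p = 0.880). Of all probe sets 0.0664% passed. In treated diabetic against normal muscle 0 member probe sets passed, as did 0% of all probe sets, and 3 of the 11 had an unadjusted p under 0.05, against 12.8% of all. S100a4 differed by 1.33 ± 0.53 (adjusted p = 0.339), which became 2.26 (adjusted p = 0.0300) without the 3 arrays of high Gapdh ratio, with adjusted p from 0.0300 to 0.680 over the 10 settings. The dimmer Anxa5 probe set differed by -1.42 ± 0.50 (adjusted p = 0.328) and the dimmer Anxa1 probe set by -0.88 ± 0.34 (adjusted p = 0.339).

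The difference between the treatment changes of diabetic and normal muscle was tested directly as an interaction. Of the 11 member probe sets 0 passed, against 0.166% of all probe sets, and 2 had an unadjusted p under 0.05, against 13.3% of all. The largest was the dimmer Anxa5 probe set at -2.10 ± 0.71 (unadjusted p = 0.00761, limma adjusted p = 0.194), then the dimmer Anxa1 probe set at -1.39 ± 0.48 (adjusted p = 0.208). S100a4 stood at -1.21 ± 0.74 (adjusted p = 0.495).

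**Figure D4:**
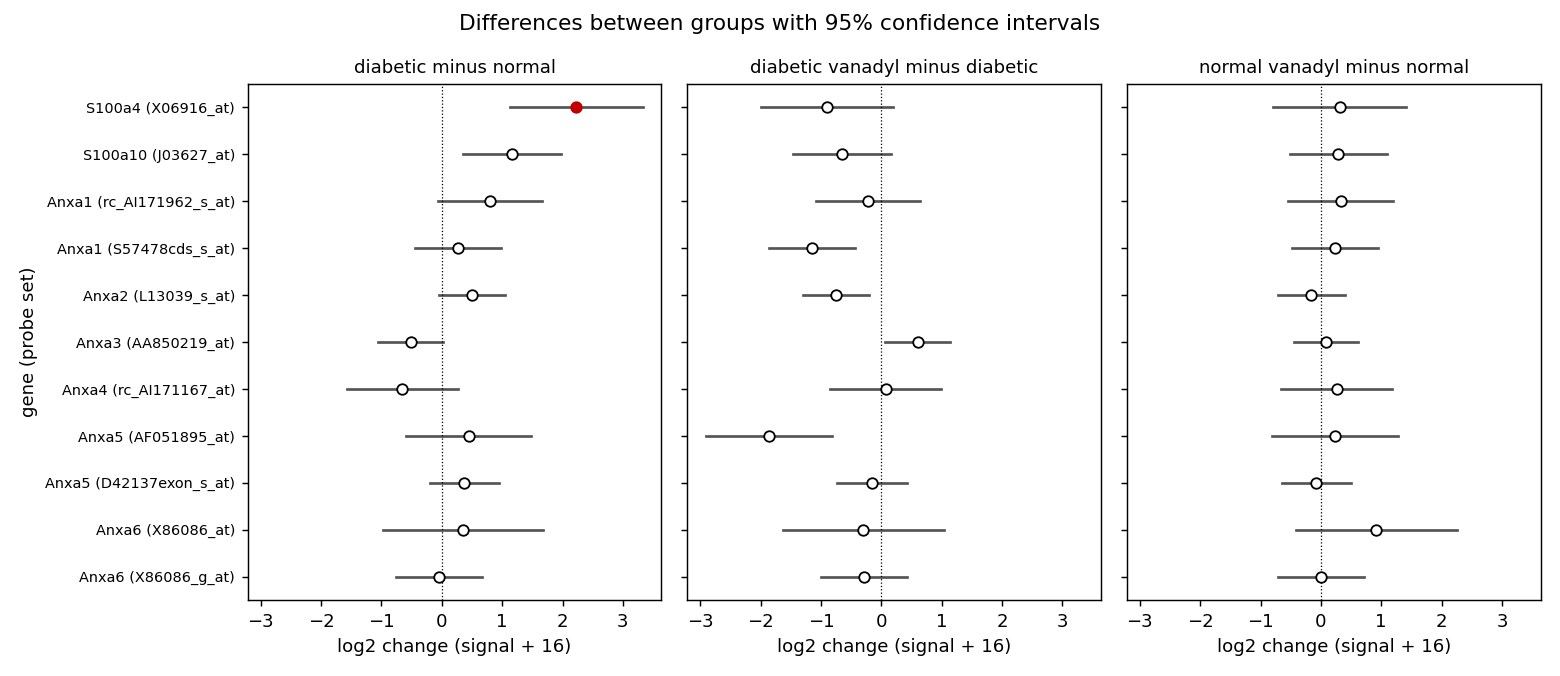
Differences on the log2(signal + 16) scale with 95% confidence intervals for the 11 tested member probe sets: diabetic minus normal (left), treated diabetic minus diabetic (middle) and treated normal minus normal (right). Filled points passed an adjusted p of 0.05. S100a4 in the left panel, at 2.23, is the filled point.

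The partners of these proteins were read from lists of their pathway genes. Of plasminogen activation genes, the pathway served by the annexin A2 and S100a10 tetramer, 7 of 10 were tested and 1 rose in diabetic against normal muscle. That gene was Plat, the tissue plasminogen activator, which read 498, 839.5, 623, 1330 and 459 in treated diabetic, 1915, 883, 1729.9, 1681 and 2574 in diabetic, 911, 826, 1047, 636 and 1574 in treated normal and 536, 1042, 731, 481 and 519 in normal muscle. In total 4 of 5 diabetic arrays lay above every normal array. The difference was 1.37 ± 0.33 (2.58-fold, adjusted p = 0.0433), and it lost the call without any 1 of normal replicates 3, 4 or 5, diabetic replicates 1, 3, 4 or 5, or treated normal replicates 1, 2 or 3 (adjusted p from 0.0511 to 0.129). Without both diabetic replicates 1 and 3 it was 1.28 (adjusted p = 0.387). Plat differed by -1.24 ± 0.33 in treated against untreated diabetic muscle (adjusted p = 0.103), and passed only without treated diabetic replicate 4 among the 20 single omissions (-1.47, adjusted p = 0.0440). The others of this list in diabetic against normal muscle included Timp1, an inhibitor of metalloproteinases, at 0.79, the metalloproteinase Mmp2 at 0.56 and Serpine2, an inhibitor of plasminogen activators and thrombin, at -0.97 (adjusted p = 0.426), and 0 fell.

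Of the receptors and signalling genes through which S100 proteins are known to act, 6 of 9 were tested and 1 rose in diabetic against normal muscle. Nfkbia, the inhibitor and target of NF-κB, read 1768, 1049, 1028, 2095 and 2184 in treated diabetic, 3825, 1933, 4304, 2326 and 2492 in diabetic, 1159.9, 866, 1105, 986 and 1344 in treated normal and 1045, 704, 788, 702 and 1024 in normal muscle. Every diabetic array lay above every normal array, as 3.33% of all probe sets did. The difference was 1.74 ± 0.27 (3.34-fold, adjusted p = 0.00257) and passed in all 20 single omissions, though not without both diabetic replicates 1 and 3 (1.40, adjusted p = 0.0996). A second Nfkbia probe set differed by 1.43 ± 0.49 (adjusted p = 0.141). The receptor Ager differed by 1.06 (adjusted p = 0.152), the Ager and Tlr4 ligand Hmgb1 by 0.52 (adjusted p = 0.338) and the receptor Tlr4 by 0.40, none past the threshold. Treated against untreated diabetic muscle had 0 of the 6 past it, with Nfkbia at -0.87 ± 0.27 (adjusted p = 0.140). There the second Nfkbia probe set differed by -1.81 ± 0.49 (adjusted p = 0.109). All its treated diabetic arrays lay below all its diabetic arrays, as 2.07% of all probe sets did.

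Of the genes of annexin A1 receptors and eicosanoid synthesis 8 of 12 were tested, and 1 rose in diabetic against normal muscle. Pla2g2a, a secreted phospholipase A2, read 486, 914, 1398, 1020.1 and 881 in treated diabetic, 2104, 709.7, 1944, 953 and 3183 in diabetic, 1728, 920.5, 2471, 612 and 719.6 in treated normal and 593, 277, 939, 418 and 214 in normal muscle. Its groups overlapped at diabetic replicate 2, and the difference was 1.82 ± 0.47 (3.53-fold, adjusted p = 0.0496). The call was lost in 12 of the 20 single omissions (adjusted p up to 0.155), namely normal replicates 2, 4 and 5, diabetic 1, 3 and 5, treated diabetic 2, 3 and 4, and treated normal 1, 2 and 4. Without both diabetic replicates 1 and 3 the difference was 1.57 (adjusted p = 0.493). Of the prostaglandin synthases, Ptgs1 differed by 0.89 (adjusted p = 0.234) and Ptgs2 by -1.04 (adjusted p = 0.266) in diabetic against normal muscle, neither past the threshold. Treated against untreated diabetic muscle had Ptgs1 at -0.68 (adjusted p = 0.379) and Ptgs2 at 1.60 (adjusted p = 0.122). Alox5ap, the protein that presents arachidonic acid to 5-lipoxygenase, read 324, 893, 450, 335 and 253 in treated diabetic, 1128, 1191, 1154, 1466 and 962 in diabetic, 811, 1469, 1487, 1267 and 1584 in treated normal and 490.5, 870.3, 165, 853 and 286 in normal muscle. Every diabetic array was above every normal array, as 3.33% of all probe sets were, and the difference was 1.36 ± 0.39 (adjusted p = 0.0804). All treated diabetic arrays were below all diabetic arrays, while 4 of 5 treated normal arrays were above all normal arrays. Its treatment change differed between the states by -2.98 ± 0.55 (interaction, adjusted p = 0.0347), the 1 call of the list there. That call was lost without any 1 of normal replicate 5, diabetic 1, 3 or 4, treated diabetic 1 or 3, or treated normal 2, 3 or 5 (adjusted p up to 0.0944). It was -3.00 (adjusted p = 0.230) without both diabetic replicates 1 and 3, and -2.49 (adjusted p = 0.0776) without the 3 arrays of high Gapdh ratio.

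Of the cytoskeletal partners of S100 proteins 11 of 17 were tested. In diabetic against normal muscle 0 passed, with Tpm3, a tropomyosin of slow fibres and non-muscle cells, at 1.16 (adjusted p = 0.0519) and Ezr, the membrane linker ezrin, at 1.71 (adjusted p = 0.0633). At an unadjusted p under 0.05 their list also held the actin-capping Capg, at 0.95, and Msn, the linker moesin, at -1.49. In treated against untreated diabetic muscle 1 of 11 fell. Tpm3 read 8824, 4324, 2388, 4474 and 3622 in treated diabetic, 14223, 8811, 15293, 9187 and 9467 in diabetic, 7354, 5606, 5964, 3697 and 4932 in treated normal and 6368, 3464, 6334, 4600.2 and 4567 in normal muscle. Its difference was -1.36 ± 0.30 (adjusted p = 0.0471), and in 17 of 20 single omissions it missed the threshold, passing only without normal replicate 2 or 3 or treated diabetic replicate 1 (adjusted p from 0.0135 to 0.188 over all 20). Without both diabetic replicates 1 and 3 it was -1.09 (adjusted p = 0.511).

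Membrane repair genes, 8 of 12 tested, had 0 past the threshold in diabetic against normal muscle, with Capn2, a calpain, at 0.89 and Bin1, a membrane-bending protein, at -0.69. Of the other S100 genes 3 of 9 were tested and 0 passed. S100a1, the S100 protein of muscle fibres that binds the calcium release channel, differed by -0.42 ± 0.23 in diabetic against normal muscle (adjusted p = 0.360) and by 0.53 ± 0.23 in treated against untreated diabetic muscle (adjusted p = 0.263). Its signs in both comparisons were the opposite of those of S100a4, and neither value passed.

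Markers of other cells moved in the same comparison as S100a4. Of 22 macrophage markers listed, 14 were on the array and 11 were tested. In diabetic against normal muscle 6 of the 11 rose (Lyz2, Ctss, Lgals3, Ccl2, Fcgr2b and Coro1a) and 5 did not pass. Those 5 were Cd74 at 1.69, C1qb at 1.56, C1qc at 0.21, Cd14 at -0.07 and Ptprc at -0.41. Coro1a was above the 40th percentile in 5 arrays, the fewest the filter allows, with a median percentile of 19.77. In treated against untreated diabetic muscle 3 of the 11 fell (Lyz2, Ccl2 and Fcgr2b). Itgam, Csf1r and Ccr2, also on the list, were not bright enough to be tested, being above the 40th percentile in 0, 1 and 2 arrays. The macrophage sum was 18440 to 28939 in treated diabetic, 35072 to 117316 in diabetic, 21789 to 30770 in treated normal and 15144 to 22667 in normal muscle. Of 6 tested adipocyte markers 3 rose in diabetic against normal muscle (Fabp4, Lipe and Cidea). Cfd at 1.55, Pparg at 0.10 and Lep at -0.33 did not pass. Plin1, above the 40th percentile in 0 arrays, was not tested. The adipocyte sum was 23494 to 34717 in treated diabetic, 32422 to 53202 in diabetic, 19284 to 25058 in treated normal and 15215 to 26860 in normal muscle. Of 13 tested fibroblast markers 1 rose (Lox), of 6 endothelial markers 1 (Esm1) and of 7 markers of regenerating fibres 1 (Myh3). Cidea (-2.29, adjusted p = 0.00299), Esm1 (-2.08, adjusted p = 0.00299) and Myh3 (-2.34, adjusted p = 0.0471) fell in treated against untreated diabetic muscle. When diabetic replicates 1 and 3 were left out, the whole array gave 3 calls for diabetic against normal muscle. For treated against untreated diabetic muscle it gave 1. Most of the marker rises and falls named here were therefore lost in that setting, which also has fewer arrays. Lymphocyte, smooth muscle, Schwann cell, mast cell and red blood cell markers had 0 past the threshold. Skeletal muscle markers, 11 tested, had 0 past the threshold in either comparison. All 11 had differences below 0 in diabetic against normal muscle (median -0.43), and 10 of the 11 had differences above 0 in treated against untreated diabetic muscle (median 0.68). The arrays with the highest skeletal muscle sum of the normal and treated diabetic groups had a high Gapdh ratio. That sum was 3895324 in normal replicate 3, against 811812 to 1242371 in the other normal arrays. Normal replicate 1, also of high Gapdh ratio, was among the latter at 828633. The skeletal muscle sum was 2287453 in treated diabetic replicate 1, against 1052622 to 1659958 in the others of that group. The part of RNA quality in these differences was not tested. Diabetic arrays ran from 769830 to 1140337. The part of these cell types in the members' values was not tested.

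The genes with the pattern most like S100a4, S100a8, Anxa1, Anxa2 and Anxa5 were named by Pearson r on the log2 scale over the 20 arrays, among 3581 tested genes. For S100a4 they were Fabp4 at 0.91 (0.79 after group means were removed), S100a10 at 0.90 (0.88), B2m at 0.90 (0.80), Rack1 at 0.88 (0.81) and Rps4x-ps9 at 0.88 (0.79). For the brighter Anxa1 probe set they were Id2 at 0.91, Rcn2 at 0.88, Ss18 at 0.87, Ywhaz at 0.86 and Gtf2b at 0.86. Anxa2 was most like Sncg at 0.81 (0.71 after group means were removed), Ripk3 at 0.76 (0.71), Tnnt2 at 0.74 (0.60), Ccl2 at 0.71 (0.48) and Plin2 at 0.71 (0.53). The brighter Anxa5 probe set was most like Itpr1 and Cyp7b1 at 0.77 each, B2m at 0.76, and Taldo1 and Ywhah at 0.75 each. S100a8, bright in 3 arrays and compared with 3582 genes, was most like Coro1b at 0.81, Taf1c at 0.75, Glycam1 and Cd40 at 0.72 each, and Ybx3 at 0.69. B2m, the light chain of class I histocompatibility molecules, was among the 5 most similar genes for both S100a4 and Anxa5. All these correlations describe arrays that share groups, scaling and RNA quality.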

How the data were processed

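The deposited table gives each probe set's signal intensity, linear, from the authors' MAS5 run per the submitters' processing notes (version not given in the sources used here); 0 deposited columns were left unused. The authors' scaling was kept. Signals were analysed as log2(signal + 16). Control probe sets (59 of 8799) were left out, and 6027 probe sets above the array's 40th percentile in at least 5 of 20 arrays were tested. All 20 arrays entered 1 limma fit of group means (version 3.58.1, with empirical Bayes variances, in R 4.3.3), two-sided, with Benjamini-Hochberg adjustment and a threshold of 0.05. The number of arrays, 5 per group, limits the precision. The scripts were tested on simulated data.

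All probe sets of the members were named. From each pathway or marker list, genes that passed were named, and otherwise up to 4 with the smallest p. For macrophage and adipocyte markers the tested genes that did not pass were named as well. The brightest probe set stood for a listed gene. The members and lists were chosen with earlier results of these data known. Replicate numbers were not used as pairs in the main fit, and what they mark is not in the labels. Same-numbered arrays correlated in their deviations from the group means at -0.28 to 0.62 (median 0.07, 30 pairs). Other-numbered arrays did so at -0.495 to 0.41 (median 0.0038, 120 pairs), so a pairing by number was neither shown nor excluded. Alternatives covered the pseudocount (lower and higher), the filter, quantile normalization, RNA quality covariates, left-out arrays, only the compared groups and a replicate block.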

Additional observations from a re-analysis of the deposited data

Results flagged for a closer look

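For the Anxa5 probe set AF051895_at, every treated diabetic array lay below the diabetic mean and every treated normal array lay above the normal mean, and the treatment change in diabetic muscle minus that in normal muscle was -2.10 on the log2 scale. The interaction did not pass (limma adjusted p = 0.194; 0.0871 to 0.316 over the single omissions). The treatment change was -1.86 in diabetic muscle and 0.23 in normal muscle (limma adjusted p = 0.900), and neither passed. The value in normal muscle was below 0 without normal replicate 3 (-0.021) and when the 3 high-Gapdh arrays were left out (-0.14), so opposite directions were not shown.

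Among 56 groups of 5 arrays examined for a lone array, 3 had an array far from the other 4, and chance gives about 1 in 20. Treated diabetic replicate 3 read 179.8 for the dim Anxa3 probe set rc_AI639072_at, against 57.5 for the next array. For the dim Anxa6 probe set X86086_at, treated normal replicate 1 read 267.6, against 481 for the next array. In the same probe set normal replicate 1 read 15.8, against 289.1 for the next, and this array has a high Gapdh 3′ to 5′ ratio (2.90).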

How the results depend on the processing

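In diabetic against normal muscle 1 member probe set passed, S100a4. The count was 0 with no filter (S100a4 adjusted p = 0.0522), with both RNA quality ratios as covariates (difference 2.26, adjusted p = 0.0571), without diabetic replicates 1 and 3 (1.79, 0.489), and with only the compared groups in the fit (2.23, 0.0883), and 2 with the Gapdh ratio as covariate or the 3 high-Gapdh arrays left out, where S100a10 joined. It was 0 to 2 over single omissions. S100a4 passed with a lower (0.0374) or higher (0.0208) pseudocount, quantile normalization (0.0488) and the replicate block (0.0180), which changed no member's call; Plat missed the threshold with it (0.0671). In treated against untreated diabetic muscle the count of 0 was 0 to 1 over single omissions, and in treated diabetic against normal muscle it was 1 without the 3 arrays of high Gapdh ratio.

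Without diabetic replicates 1 and 3, treated against untreated diabetic muscle turned to 0.047 for the brighter Anxa1 probe set, 0.82 for S100a8 and 0.22 for S100a9, and diabetic against normal muscle to -0.53 for S100a8. Without the 3 arrays of high Gapdh ratio, treated against untreated normal muscle turned to 0.087 for Anxa2 and -0.14 for the dimmer Anxa5 probe set, and diabetic against normal muscle to -0.55 for the dim Anxa6 probe set. When the Gapdh ratio was a covariate Anxa2 turned to 0.0083 in normal muscle, and with both ratios the bright Anxa6 probe set turned to 0.039 in diabetic against normal muscle. Single omissions turned signs in treated against untreated normal muscle for S100a4 (-0.076 to 0.75), S100a10 (-0.026 to 0.57), Anxa2 (-0.32 to 0.019) and the dimmer Anxa5 probe set (-0.021 to 0.34). In treated against untreated diabetic muscle they did so for Anxa4 (-0.21 to 0.32), the brighter Anxa5 probe set (-0.35 to 0.0054), the dim Anxa6 (-0.64 to 0.21), the bright Anxa6 (-0.48 to 0.072) and S100a8 (-1.06 to 0.031). In diabetic against normal muscle they did so for the dim (-0.39 to 0.60) and bright (-0.15 to 0.13) Anxa6 probe sets. None of these values passed. The causes were not tested, except that settings with fewer arrays have fewer samples. No detection calls were used here, so dim signals such as S100a8 are limited by an unknown background.

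Among all tested probe sets the diabetic against normal comparison made 110 calls, and the count was 62 with no filter, 282 with Gapdh as covariate, 32 with both ratios, 464 without the 3 arrays of high Gapdh ratio, 3 without diabetic replicates 1 and 3, and 71 with only the compared groups. The 30 of treated against untreated diabetic muscle became 50 with the higher pseudocount, 19 with no filter, 1 without diabetic replicates 1 and 3, and 11 with only the compared groups. Treated against untreated normal muscle had 4, and 0 to 4 over the alternatives, treated diabetic against normal muscle 0, and 359 when the 3 high-Gapdh arrays were left out, and the interaction 10, and 1 to 15. With the replicate block the counts were 106, 39, 0, 0 and 6 in that order, and 6 of 20 arrays correlated best with their own number. Over single omissions they ran from 24 to 247, 10 to 59, 0 to 6, 0 to 3 and 1 to 22.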
